A study of Mus musculus with 6 samples.

Results

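The transforming growth factor beta (TGF-beta) system was followed through 10 genes in cultured mouse heart cells, chosen by name as the 3 ligands Tgfb1, Tgfb2 and Tgfb3, the 3 receptors Tgfbr1, Tgfbr2 and Tgfbr3, and the 4 latent TGF-beta binding proteins Ltbp1, Ltbp2, Ltbp3 and Ltbp4. All 10 were found among the 54532 genes of the deposited table, and all 10 were among the 14246 genes with enough reads to be tested. The cells were iCDCs by the labels and iECDCs (for epicardium) in the study, cardiosphere-derived cells grown from the heart of C57BL/6 mice and immortalized with hTERT, the human telomerase gene delivered by lentivirus. The labels give heart ventricle as the tissue, and the methods of the study describe the epicardium of the ventricle as the source. RNA sequencing was done on 3 libraries of control cells at passage 30 and on 3 libraries of cells of the same passage that had been induced with 5-azacytidine, which blocks DNA methylation and served to start cardiac differentiation. By the labels the drug was given at 10 µM for 3 days, and IMDM with 2% serum followed for 4 weeks. The methods describe another medium and duration for this step, and routine growth of the line in a medium richer in serum. The time that control cells spent in culture before sequencing is given in neither source, so drug, serum and time in culture cannot be told apart. Both groups carried the hTERT transgene. The study describes an immortalized line made by transduction and selection, without saying that both groups came from one transduced culture. The labels speak of separate samples without saying that these were separate cultures, so the p-values measure the spread between these samples, which may be technical. The methods state fewer biological replicates per condition than there are deposited libraries per group.

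TGF-beta is secreted in a latent form, held inactive by its own propeptide. The latent TGF-beta binding proteins LTBP1, LTBP3 and LTBP4 are joined to the propeptide and tether the complex to fibrillin and fibronectin in the extracellular matrix, whereas LTBP2 shares the domain structure and binds fibrillin but does not bind the latent growth factor. Integrins and matrix proteins such as thrombospondin-1 release the active ligand, which binds the receptor TGFBR2. TGFBR2 then activates TGFBR1, and TGFBR1 phosphorylates SMAD2 and SMAD3. TGFBR3, also called betaglycan, is a co-receptor without kinase activity that presents ligand and is needed most for TGF-beta2. In the heart this pathway is known for the epithelial-to-mesenchymal transition of epicardial cells, for fibroblast activation and for matrix deposition.

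The largest differences in this set were in opposite directions and in the same family. Ltbp2 rose 14.3-fold and Ltbp1 fell 8.37-fold in induced cells. The promoter windows of these genes are shown because both genes changed most among the 10 and the inducing drug lowers methylation, which in mammals sits mainly on CG. Each window runs from 250 bases before to 50 bases after the RefSeq start of the gene on GRCm38.p6, which lies 39 bases (Ltbp1) and 41 bases (Ltbp2) from the start in the deposited table, and is printed in lower case with every CG in capitals. The Ltbp1 window is chr17:75005279-75005578 on the plus strand, and the Ltbp2 window is chr12:84876442-84876741 on the minus strand, each printed 5′ to 3′ along its gene.
Ltbp1: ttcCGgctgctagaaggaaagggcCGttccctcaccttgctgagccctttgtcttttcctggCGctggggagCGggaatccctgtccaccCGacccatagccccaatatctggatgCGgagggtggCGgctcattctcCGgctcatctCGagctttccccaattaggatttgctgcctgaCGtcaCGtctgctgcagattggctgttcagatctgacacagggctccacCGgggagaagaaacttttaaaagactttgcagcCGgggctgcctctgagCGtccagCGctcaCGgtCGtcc
Ltbp2: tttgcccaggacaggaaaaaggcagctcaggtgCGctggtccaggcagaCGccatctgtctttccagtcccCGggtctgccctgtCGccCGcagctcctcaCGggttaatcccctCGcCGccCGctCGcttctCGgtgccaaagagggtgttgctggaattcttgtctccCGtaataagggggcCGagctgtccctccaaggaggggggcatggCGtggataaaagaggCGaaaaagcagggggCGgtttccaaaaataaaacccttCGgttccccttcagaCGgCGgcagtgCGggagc

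The Ltbp1 window held 17 CG and the Ltbp2 window held 20, against a median of 7 over all 32851 windows of this length. As many CG or more were found in 31.4% and 26.5% of all windows, respectively, and 94.6% of all windows held at least 1. Since CG reads the same on both strands, each site was counted once. A second RefSeq start of Ltbp1 had a window with 7 CG. Windows were found for 8 of the 10 genes. Of these only Ltbp1 and Tgfbr1 were lower in induced cells, too few to compare CG content by direction of change. Ltbp3, which was higher in induced cells, had 3 CG in its window, while the 3 windows of Ltbp4, also higher, had 19, 39 and 39. Tgfbr1, which was lower, had 34 in one window and 3 in the window of a second start. The windows of Tgfb1, Tgfb2 and Tgfbr2 had 30, 10 and 15. Tgfb3 and Tgfbr3 had no entry. These are descriptions of the reference genome, and methylation was not measured in these libraries.

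Libraries held 19041133 to 19823369 counted reads, and a gene with 0 reads in a library could have been present at up to 0.151 to 0.158 CPM (reads scaled to a common library size), taking 3 reads as the limit. Such limits cover counting error only. The first principal component separated the groups and held 90.2% of the variance. By edgeR's quasi-likelihood test at an adjusted p of 0.05, 64.8% of the tested genes were called, 32.6% higher and 32.2% lower in induced cells. Calls with a change of 2-fold or more made up 17.1% of tested genes, and the groups did not overlap in 68.6%. The difference was therefore broad, and a call by itself sets a gene apart little. The mesenchymal markers of the line (Thy1, Eng, Ly6a, Pdgfra, Col1a1 and Vim) were all above 1 CPM, with a summed level of 12015 to 12444 CPM in control and 8836 to 9399 CPM in induced libraries. Col1a1 and Vim made up most of this sum. They were lower in induced cells, as were Ly6a and Pdgfra, while Thy1 and Eng were higher. The epicardial markers (Tbx18, Wt1, Tcf21, Upk3b, Msln and Krt19) summed to 404 to 416 CPM in control and 1243 to 1393 CPM in induced libraries. Upk3b made up most of this sum, and it was higher in induced cells with Msln, Wt1 and Tcf21. Tbx18 and Krt19 went the other way, from 63.7 to 50.7 CPM and from 30.3 to 12.8 CPM. All 6 endothelial markers were under 1 CPM, with sums of 0.255 to 0.557 CPM in control and 0.579 to 0.943 CPM in induced libraries, and Tie1 had 0 reads. Of 7 cardiomyocyte markers 6 stayed under 1 CPM in every library, and the list summed to 1.5 to 1.67 CPM in control and 2.5 to 2.95 CPM in induced libraries. The leukocyte list rose from 4.76 to 6.41 CPM in control to 40.7 to 47.7 CPM in induced libraries through Cd68 and Lyz2, while Ptprc, Tyrobp, Itgam, Cd52 and Cd3e, the other 5 of its 7 genes, had 0 reads throughout. The smooth muscle list summed to 1028 to 1084 CPM in control and 637 to 703 CPM in induced libraries, with Myh11, Smtn and Des higher and Acta2 and Cnn1 lower. The part of these shifts in the results below was not tested, and in bulk RNA fewer cells of a type cannot be told apart from less RNA per cell.

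All 10 genes of the TGF-beta set differed between the groups, 7 higher and 3 lower in induced cells, beside 64.8% of all tested genes. The groups of libraries did not overlap for any of the 10, beside 68.6% of all tested genes. At least 2-fold were the changes of Tgfb2, Tgfb3, Ltbp1 and Ltbp2, that is 4 of 10, beside 17.1% of all tested genes. The median log2 fold change of the set was 0.66, beside -0.01 over all tested genes. The 3 ligands were all higher, the receptors were split with 1 higher and 2 lower, and the LTBP family was split with 3 higher and 1 lower.

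**Figure D1:**
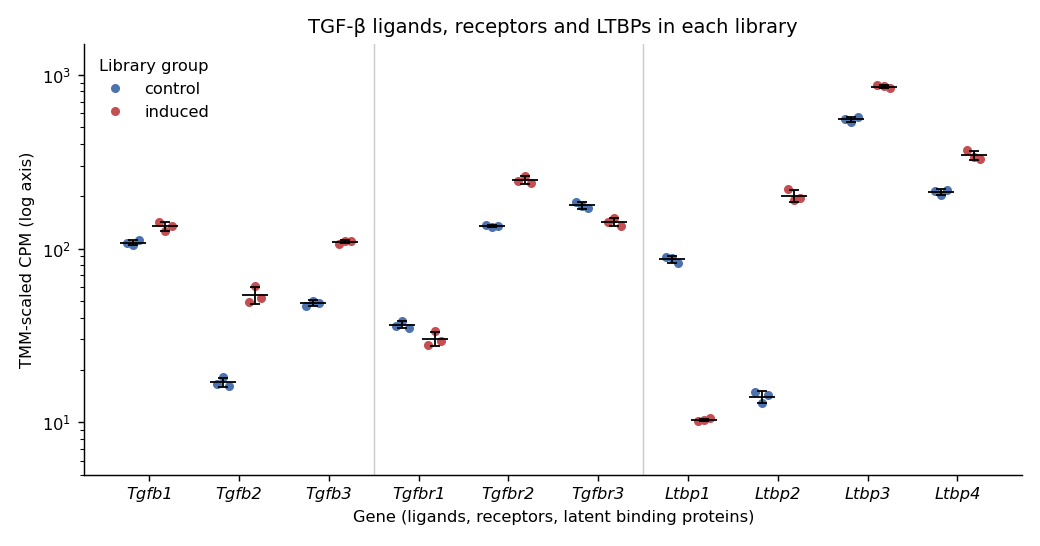
Level of each of the 10 genes in each library, in TMM-scaled CPM on a log axis, with blue points for the 3 control and red points for the 3 induced libraries and bars for the mean ± SD. The groups are apart for every gene, most widely for Ltbp2 (12.9 to 14.9 against 189 to 220.2) and Ltbp1 (82.6 to 89.7 against 10.2 to 10.5).

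Among the ligands, Tgfb2 changed most. Gene coordinates here and below are those of the deposited table, for which the submitters name the mouse build mm10. Tgfb2 (ENSMUSG00000039239, chromosome 1, 186622792 to 186705989, minus strand) encodes the isoform that depends most on betaglycan and is needed for heart valve and outflow tract development. Its level was 16.6, 18.1 and 16.3 CPM in the control libraries and 49.6, 60.8 and 52.0 CPM in the induced libraries. Every induced library was far above every control library, although the induced libraries spread more. The level rose from 17.0 ± 0.991 to 54.1 ± 5.90 CPM (SD, n = 3 per group), which is 3.18-fold (edgeR log2 fold change 1.67 with SE 0.08, adjusted p 2.52e-12). The opposite-strand transcript Gm29491 overlaps 2.14% of its exon bases.

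Tgfb3 (ENSMUSG00000021253, chromosome 12, 86056745 to 86079041, minus strand), an isoform best known for palate fusion and present in many mesenchymal cells, was at 46.5, 50.2 and 48.7 CPM in control and 107, 111 and 111 CPM in induced libraries. The libraries of each group lay close together and the groups were well apart. The rise was 2.26-fold (edgeR log2 fold change 1.17 with SE 0.05, adjusted p 1.11e-12). Of its exon bases 12.4% overlap the transcripts Gm37804 and Gm48008 on the opposite strand, which together had 10 reads over all libraries, and the strand setting of the counting is not given in the sources used here.

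Tgfb1 (ENSMUSG00000002603, chromosome 7, 25687002 to 25705077, plus strand), the most widely expressed isoform and the main one in fibrosis, was at 108, 105 and 112 CPM in control and 142, 125 and 135 CPM in induced libraries. Its groups were separate by a smaller margin. The rise was 1.24-fold (edgeR log2 fold change 0.31 with SE 0.06, adjusted p 7.41e-05), and 55.5% of all tested genes changed as much or more in either direction.

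Counted per length, the ligand mixture shifted from Tgfb1 to Tgfb3 as the most abundant transcript. This order depends on the deposited gene lengths, 5042 bases for Tgfb1 and 3383 bases for Tgfb3. In reads Tgfb1 stayed above Tgfb3 in every induced library (2679, 2384 and 2568 against 2004, 2103 and 2114). The summed level of the ligands rose from 38.3 ± 0.714 to 68.2 ± 0.279 FPKM (reads per kilobase of gene length, scaled to library depth, SD, n = 3), 1.78 times as high. Tgfb1 took 55.4% ± 1.55 of that sum in control and 39.0% ± 2.41 in induced libraries. Tgfb3 took 37.0% ± 1.14 in control and 47.3% ± 1.07 in induced libraries. Tgfb2 was the rarest of the ligands in both groups, with 7.6% ± 0.474 in control and 13.7% ± 1.52 in induced libraries. For each of these shares the groups did not overlap, and the exact two-sided permutation test gave p = 0.1, the smallest that 3 against 3 libraries allow. The ratio of Tgfb3 to Tgfb1 FPKM was 0.670 in control and 1.22 in induced cells.

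**Figure D2:**
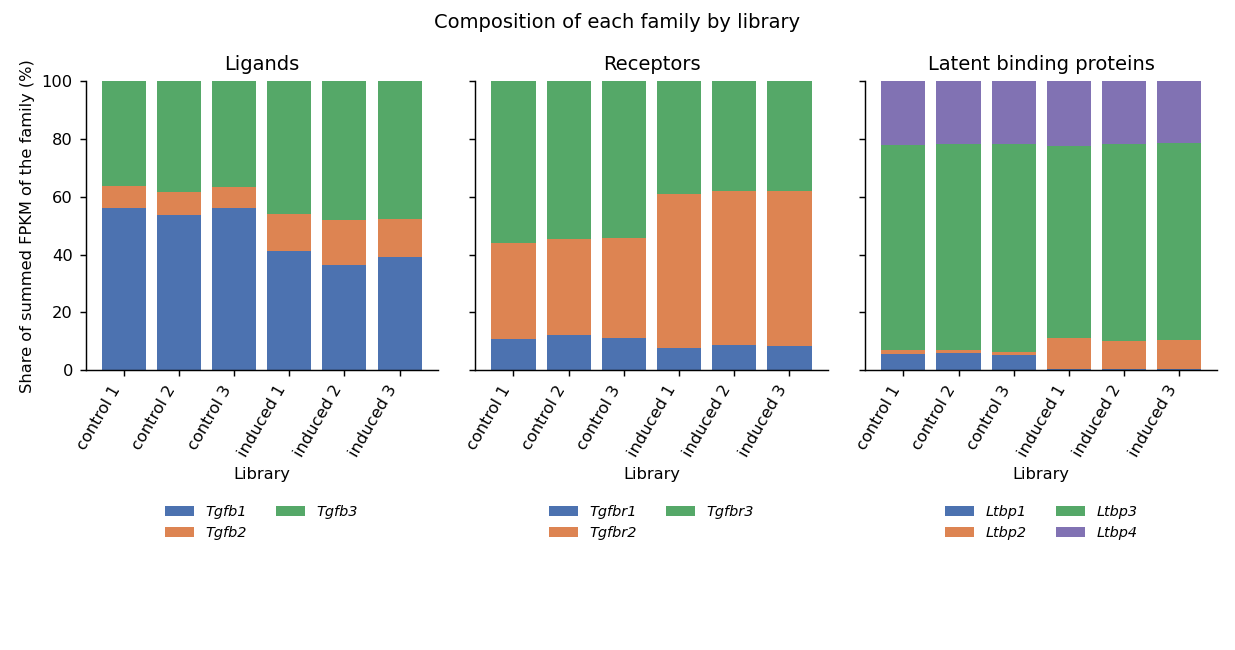
Share of each gene in the summed FPKM of its family (percent), 1 bar per library, for ligands, receptors and latent TGF-beta binding proteins. In induced libraries Tgfb3 exceeds Tgfb1, Tgfbr2 takes 53.5% of the receptor sum, and Ltbp2 stands where Ltbp1 stood, while Ltbp3 takes most of its family in all 6 libraries.

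Of the receptors only the ligand-binding kinase rose. Tgfbr2 (ENSMUSG00000032440, chromosome 9, 116084293 to 116175360, minus strand) was at 137, 133 and 135 CPM in control and 245, 262 and 238 CPM in induced libraries. No induced library came near the control level. The rise was 1.84-fold (edgeR log2 fold change 0.88 with SE 0.05, adjusted p 2.25e-11).

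Its partner kinase Tgfbr1 (ENSMUSG00000007613, chromosome 4, 47353222 to 47414931, plus strand), which passes the signal to the SMAD proteins, was at 35.8, 38.5 and 35.1 CPM in control and 27.8, 33.6 and 29.5 CPM in induced libraries. The highest induced library came within a few CPM of the lowest control library. The fall was 1.2-fold (log2 fold change -0.27, 95% interval -0.42 to -0.11, edgeR adjusted p 0.00427), the smallest change of the 10, and 60.9% of all tested genes changed as much or more.

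The co-receptor Tgfbr3 (ENSMUSG00000029287, chromosome 5, 107106570 to 107289629, minus strand) was at 185, 175 and 171 CPM in control and 143, 149 and 134 CPM in induced libraries. All induced libraries were below all control libraries. The fall was 1.24-fold (edgeR log2 fold change -0.31 with SE 0.05, adjusted p 4.43e-05). It overlaps the same-strand transcript Gm43422 in 4.54% of its exon bases.

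The summed receptor level moved little, from 48.6 ± 1.21 to 56.6 ± 2.90 FPKM (SD, n = 3), while its makeup changed. Tgfbr3 was the most abundant receptor transcript in control cells, with 55.03% of the sum, and had 38.3% in induced cells. Tgfbr2 took 33.6% ± 0.688 in control and 53.5% ± 0.182 in induced libraries, and Tgfbr1 took 11.4% and 8.17%. The ratio of Tgfbr2 to Tgfbr1 FPKM rose from 2.96 to 6.56. For these 3 shares the exact two-sided permutation test again gave p = 0.1, the smallest it can give.

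In the LTBP family the minor members exchanged places. Ltbp1 (ENSMUSG00000001870, chromosome 17, 75005568 to 75392512, plus strand), a carrier of latent TGF-beta in the matrix, was at 89.7, 87.9 and 82.6 CPM in control and 10.2, 10.3 and 10.5 CPM in induced libraries. These values rest on 1770, 1724 and 1649 reads in control and on 192, 196 and 201 reads in induced libraries, so the low group was still well counted and all of its libraries were alike. The fall was 8.37-fold (edgeR log2 fold change -3.07 with SE 0.06, adjusted p 2.73e-17), and 2.75% of all tested genes changed as much or more.

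Ltbp2 (ENSMUSG00000002020, chromosome 12, 84783212 to 84876532, minus strand), the fibrillin-binding member that does not carry latent TGF-beta, was at 14.9, 12.9 and 14.3 CPM in control and 220.2, 189 and 195 CPM in induced libraries. The reads behind them were 295, 253 and 286 in control and 4143, 3596 and 3716 in induced libraries, and the rise was present in every induced library. It was 14.3-fold (edgeR log2 fold change 3.84 with SE 0.07, adjusted p 1.22e-17), and 1.71% of all tested genes changed as much or more. Of its exon bases 9.34% overlap D030025P21Rik on the opposite strand, which had 2 reads in control and 18 in induced libraries.

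Ltbp3 and Ltbp4 rose moderately from high levels. Ltbp3 (ENSMUSG00000024940, chromosome 19, 5740904 to 5758532, plus strand), a carrier known for its part in bone and tooth growth, was at 556, 536 and 571 CPM in control and 871, 856 and 833 CPM in induced libraries. Ltbp4 (ENSMUSG00000040488, chromosome 7, 27305136 to 27337692, minus strand), a carrier that also organizes elastic fibres, was at 215, 202 and 217 CPM in control and 367, 338 and 327 CPM in induced libraries. For both genes the groups were clearly separate. Ltbp3 rose 1.54-fold (edgeR log2 fold change 0.62 with SE 0.04, adjusted p 3.87e-10) and Ltbp4 rose 1.63-fold (edgeR log2 fold change 0.70 with SE 0.05, adjusted p 1.08e-09).

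Per length, Ltbp3 dominated the family in both groups, with 71.4% of the summed FPKM in control and 67.6% in induced libraries. Ltbp1 took 5.54% ± 0.349 in control and 0.407% ± 0.0203 in induced libraries, and Ltbp2 took 1.15% ± 0.0616 in control and 10.1% ± 0.541 in induced libraries. The ratio of Ltbp2 to Ltbp1 FPKM was 0.208 ± 0.0178 in control and 24.9 ± 2.34 in induced cells. For the shares of Ltbp1, Ltbp2 and Ltbp3 the exact two-sided permutation test gave p = 0.1, its smallest value. The share of Ltbp4 was 21.9% ± 0.198 in control and 21.9% ± 0.576 in induced libraries (exact permutation p = 0.9). The summed level of the family rose from 148 ± 4.71 to 243 ± 8.58 FPKM (SD, n = 3). Over the same libraries the ratio of summed LTBP to summed ligand FPKM was 3.87 ± 0.120 in control and 3.56 ± 0.127 in induced cells. Both the family sum and this ratio include Ltbp2, which does not carry latent TGF-beta and rose from 1.70 to 24.6 FPKM. The ratio is therefore not one of carriers to ligands, and carriers alone fell further relative to the ligands.

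**Figure D3:**
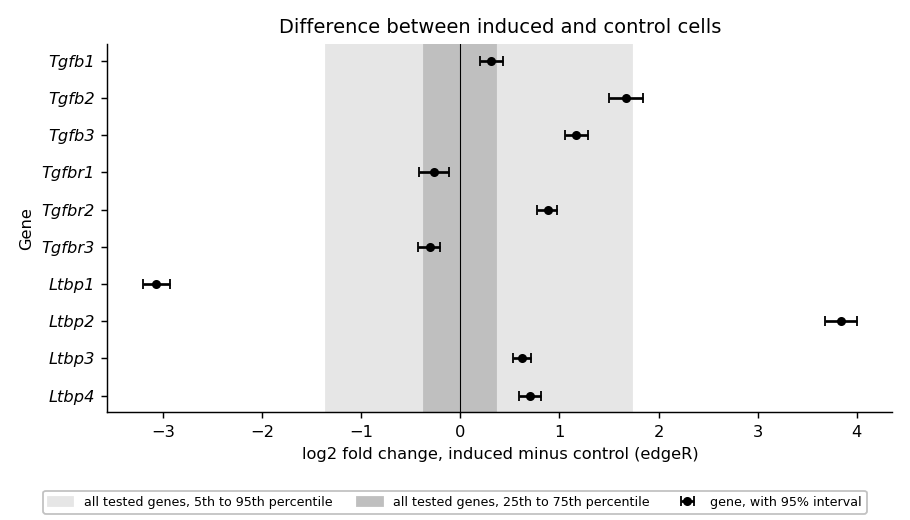
Log2 fold change of each gene, induced minus control, with its 95% interval from the edgeR fit, over bands that hold the middle 50% and 90% of all tested genes. Ltbp1 (-3.07) and Ltbp2 (3.84) lie outside the wider band, which runs from -1.36 to 1.73, and Tgfb1, Tgfbr1 and Tgfbr3 lie inside the narrower one.

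Ordered by FPKM, the control cells had Ltbp3 first at 105.8 FPKM, followed by Ltbp4 at 32.4, Tgfbr3 at 26.8, Tgfb1 at 21.2, Tgfbr2 at 16.3, Tgfb3 at 14.2, Ltbp1 at 8.20, Tgfbr1 at 5.53, Tgfb2 at 2.91 and Ltbp2 at 1.70 FPKM. Every neighbour in this order was separate from the next over the 3 libraries. In induced cells the FPKM order was Ltbp3 at 164.1, Ltbp4 at 53.1, Tgfb3 at 32.3, Tgfbr2 at 30.3, Tgfb1 at 26.6, Ltbp2 at 24.6, Tgfbr3 at 21.7, Tgfb2 at 9.33, Tgfbr1 at 4.63 and Ltbp1 at 0.986 FPKM. There the ranges of Tgfb3 and Tgfbr2 over the 3 libraries overlapped, as did those of Tgfb1 and Ltbp2. Within each induced library, Tgfb3 was above Tgfbr2 and Tgfb1 was above Ltbp2. Ltbp2 moved from the last place to the middle of the order and Ltbp1 moved to the last place. The percentile of Ltbp2 among tested genes in control cells was 27.9, and that of Ltbp1 in induced cells was 19.8.

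**Figure D4:**
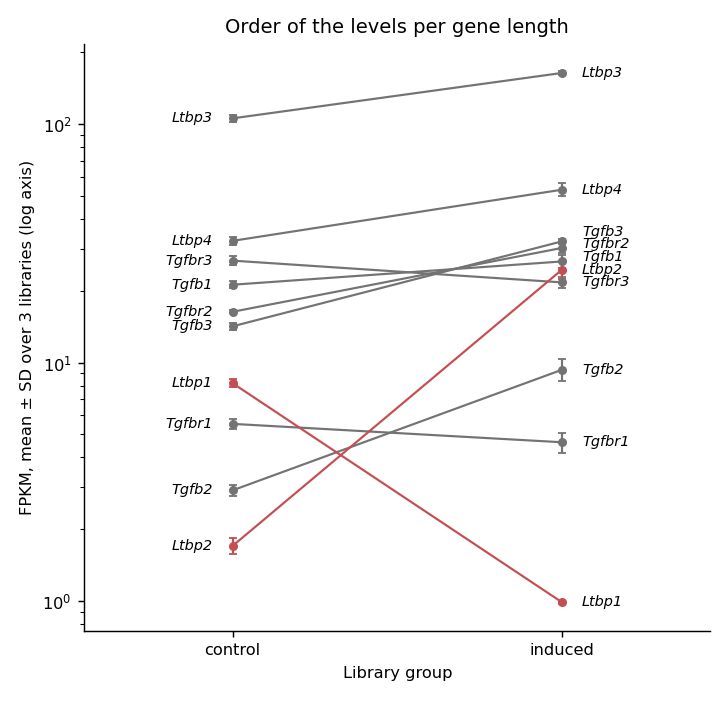
Mean FPKM of each gene in control and induced cells on a log axis, joined by a line per gene, with error bars of 1 SD over 3 libraries. Ltbp3 is highest at both ends (105.8 and 164.1 FPKM), and the lines of Ltbp1 and Ltbp2 cross.

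Both pairs of members that share a chromosome were compared. Tgfb3 and Ltbp2 lie 1180213 bases apart on chromosome 12, with log2 fold changes of 1.17 and 3.84, and Tgfb1 and Ltbp4 lie 1600059 bases apart on chromosome 7, with 0.31 and 0.70. Both genes of each pair were higher in induced cells, beside 7 of all 10 members, and genes between them were not examined. Among the 71 tested members and pathway genes, the gene whose log2 CPM was most like that of Tgfb1 over the 6 libraries was Tgm2 (Pearson r 0.979). For Tgfb2 it was Bhlhe40 (r 0.999) and for Tgfb3 it was Pmepa1 (r 0.998). These correlations mainly carry the step between the groups, as 25 and 24 of the genes had an r over 0.95 with Tgfb2 and Tgfb3.

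Beyond the 10 genes, 68 genes of the pathway were listed by role, of which 62 were tested. Of these, 29 were higher and 24 lower in induced cells and 9 were not called, beside 32.6% higher and 32.2% lower among all tested genes, and the median log2 fold change was 0.04 beside -0.01. Of the 62, 11 changed at least 2-fold, which is near the 17.1% of all tested genes.

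Among the genes that hold, release or process latent TGF-beta, 8 of 15 tested rose, 4 fell and 3 were not called, beside 64.8% called among all tested genes, with a median log2 fold change of 0.25 beside -0.01. The integrin subunit Itgb5, a partner of the alpha v subunit, rose from 128 to 474 CPM (edgeR log2 fold change 1.88 with adjusted p 5.42e-16). Itgav, which encodes the alpha v subunit, rose by less, from 166 to 209.7 CPM (edgeR log2 fold change 0.34 with adjusted p 1.38e-04). Itgb8, whose product releases TGF-beta from its propeptide, was low, at 14.5 CPM in control cells and 17.2 CPM after induction (edgeR adjusted p 0.0185), and this call was lost without control replicate 3 or without induced replicate 3 (edgeR adjusted p 0.0682 and 0.0567). Itgb6 had 3 reads in all and was not tested.

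Of the matrix protein genes described here, 3 fell, 1 rose and 1 was not called. Thbs1, which encodes the activator thrombospondin-1, fell from 4584 ± 165 to 1608.5 ± 81.3 CPM (SD over n = 3, edgeR log2 fold change -1.51 with SE 0.04, adjusted p 2.06e-15). Fibronectin, Fn1, to which latent complexes are bound, fell from 7897 to 4180 CPM (edgeR log2 fold change -0.92 with adjusted p 7.91e-13), and Emilin1, an elastic fibre protein that restrains propeptide processing, fell from 467 to 322 CPM (edgeR log2 fold change -0.54 with adjusted p 3.93e-08). The fibrillin gene Fbn1 rose from 294.6 to 361 CPM (edgeR log2 fold change 0.29 with adjusted p 3.34e-05). Gm9913 on the opposite strand overlaps 20.1% of its exon bases and had 29 reads in control and 24 in induced libraries. Fbn2 was at 94.8 CPM in control cells and 93.6 CPM after induction (edgeR adjusted p 0.816).

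Among surface modulators and SMAD genes, 11 of 21 rose, 6 fell and 4 were not called, again beside 64.8% of all tested genes, with a median log2 fold change of 0.12. The inhibitory SMAD genes were among the largest rises. Smad6, which mainly restrains the related BMP pathway, rose from 33.4 to 111 CPM (edgeR log2 fold change 1.73 with adjusted p 1.98e-14), and Smad7, which restrains the TGF-beta receptors, rose from 33.8 to 102 CPM (edgeR log2 fold change 1.59 with adjusted p 7.83e-14). Skil, which encodes the SMAD co-repressor SnoN, rose from 27.4 to 58.8 CPM (edgeR log2 fold change 1.10 with adjusted p 3.65e-09).

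Of the SMAD genes that carry the signal, only Smad3 was called, and it fell from 93.1 to 71.1 CPM (edgeR log2 fold change -0.39 with adjusted p 3.24e-06). Smad2 and Smad4 had log2 fold changes of 0.02 and 0.00 (edgeR adjusted p 0.859 and 0.964), and their sign changed with the scaling. Cd109, a surface protein that binds TGF-beta and limits its signalling, fell from 108 to 61.1 CPM (edgeR log2 fold change -0.83 with adjusted p 8.83e-10). The co-receptor endoglin, Eng, had a log2 fold change of 0.12 (edgeR adjusted p 0.0190), a call that was lost when any 1 of the control replicates or induced replicate 1 was left out (edgeR adjusted p 0.0546 to 0.0718).

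**Figure D5:**
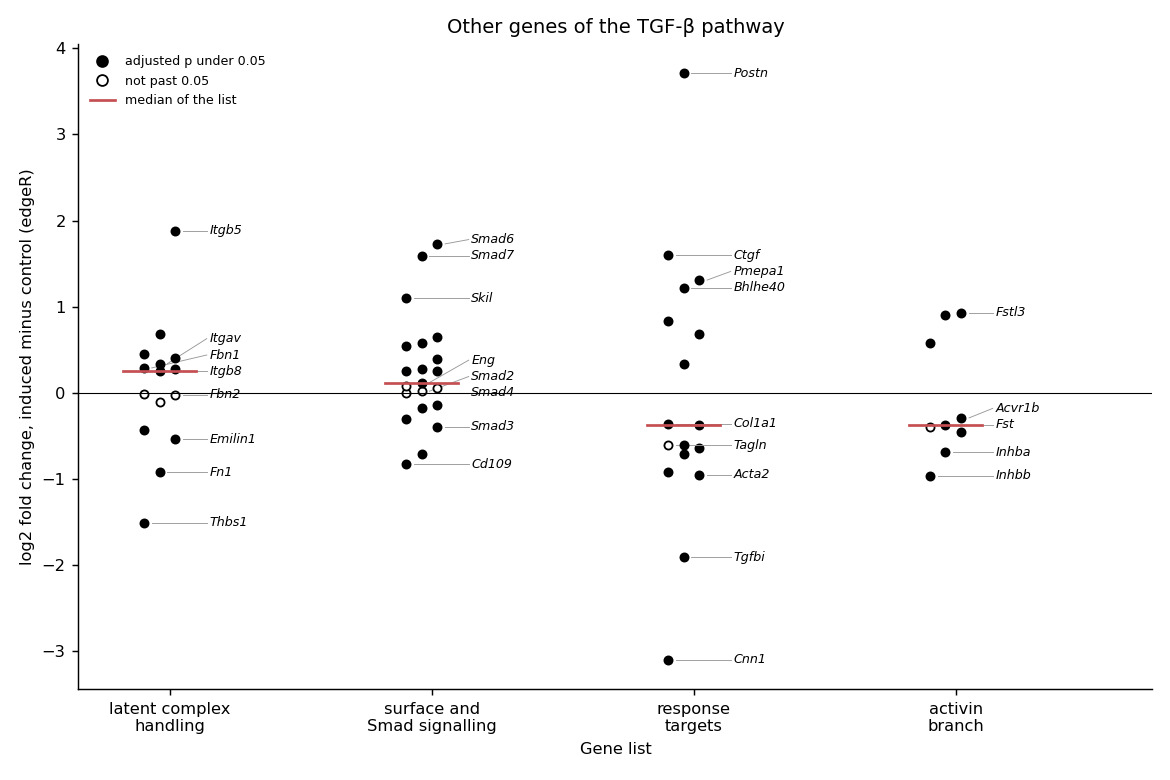
Log2 fold change, induced minus control, of each tested gene of the pathway lists, 1 point per gene in 4 columns by role, with the genes of the text labelled. Response genes spread from -3.10 to 3.71, and the activin branch lies mostly below 0 (5 of 9 called lower).

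The genes known to respond to TGF-beta did not move as one group. Of 17 tested, 7 rose, 9 fell and 1 was not called, and the median log2 fold change was -0.37, beside 64.8% called and a median of -0.01 over all tested genes. A change of 2-fold or more was found in 6, beside 17.1% of all tested genes. Those that rose included genes used as pathway readouts. Snai1, Snai2, Junb and Timp1 of the same list fell (edgeR log2 fold changes -0.92, -0.37, -0.60 and -0.71). Pmepa1, a feedback inhibitor, rose from 75.6 to 188 CPM (edgeR log2 fold change 1.31 with adjusted p 5.77e-14), and the transcription factor gene Bhlhe40 rose from 111 to 259 CPM (edgeR log2 fold change 1.22 with adjusted p 5.40e-13).

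Secreted matricellular genes of the same list moved both ways. Ctgf, the connective tissue growth factor gene, rose from 157 to 476 CPM (edgeR log2 fold change 1.60 with adjusted p 2.47e-15). Gm15270 on the opposite strand overlaps 23.2% of its exon bases and had 14 reads in control and 13 in induced libraries. Postn, which encodes periostin and marks activated fibroblasts, rose from 1.96 to 25.7 CPM (edgeR log2 fold change 3.71 with SE 0.14, adjusted p 4.22e-14). At this low level the size depends on the scale, and limma on log2(FPKM + 1) gave 1.69. Tgfbi, a TGF-beta-induced adhesion protein gene, fell from 58.2 to 15.5 CPM (edgeR log2 fold change -1.91 with adjusted p 3.13e-13).

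Of the contractile and collagen genes of the list (Acta2, Tagln, Cnn1, Tpm1, Col1a1 and Col1a2), 4 fell, Col1a2 rose and Tagln was not called. Acta2, the smooth muscle actin of myofibroblasts, fell from 945 to 489.5 CPM (edgeR log2 fold change -0.95 with adjusted p 7.21e-12), and Col1a1, a chain of type I collagen, fell from 7440 to 5786 CPM (edgeR log2 fold change -0.36 with adjusted p 2.57e-07). Cnn1, the calponin gene, had the lowest value of the list at -3.10 on the log2 scale and is named because of that value. Tagln was at 1.72 CPM in control cells and 1.1 CPM after induction (edgeR adjusted p 0.0718). Its count is uncertain, since 67.9% of its exon bases overlap Pcsk7 and Gm48529, both on the opposite strand. Cdkn2b had 0 reads in all 6 libraries.

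In the related activin branch, whose ligands use other receptors but the same SMAD2 and SMAD3, 3 of 9 tested genes rose, 5 fell and 1 was not called, none by 2-fold, beside 64.8% called and 17.1% at 2-fold or more among all tested genes. The median log2 fold change was -0.37. The activin subunit genes Inhba and Inhbb fell from 43.2 to 26.9 CPM and from 44.5 to 22.9 CPM (log2 fold changes -0.69 and -0.96, edgeR adjusted p 7.85e-08 and 8.69e-10), the opposite direction to the TGF-beta ligand genes. The type I receptor gene Acvr1b fell from 63.8 to 52.1 CPM (edgeR adjusted p 4.19e-04), as did Tgfbr1. Inha and the type II receptor gene Acvr2a rose (log2 fold changes 0.90 and 0.58, edgeR adjusted p 4.63e-04 and 2.17e-04). Gdf11 fell (log2 fold change -0.45, edgeR adjusted p 1.39e-05), and Acvr2b was not called. Of the activin antagonists, Fst fell from 12.9 to 9.99 CPM (edgeR adjusted p 0.00524) and Fstl3 rose from 23.6 to 45.1 CPM (edgeR log2 fold change 0.93 with adjusted p 1.69e-09). The exon bases of Fstl3 overlap Prss57 on the opposite strand in 47.3%, and Prss57 had 4 reads in control and 1 in induced libraries.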

How the data were processed

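RNA sequencing of 3 control and 3 induced libraries was analysed. The authors deposited raw read counts per gene and library, FPKM values, and gene length in bases. In each library the deposited FPKM values are reads per kilobase of that length, scaled by a single depth of 0.980 to 1.03 times the total. The submitters' processing notes name mm10, HISAT2 2.0.5, featureCounts 1.5.0-p3 and DESeq2 1.16.1, without settings, and the methods of the study name another version of the test. Of 54532 genes, 54495 are in GENCODE M21, 98.3% with the same coordinates. Deposited fold changes and p-values of the authors, and their Gene Ontology tables of enriched terms, were not used.

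Counts were tested in R 4.3.3 with edgeR 4.0.16 (filterByExpr with minimum count 10 and minimum total 15, TMM scaling, two-sided quasi-likelihood test, Benjamini-Hochberg adjustment over 14246 genes at 0.05). The genes kept hold 99.9% of the reads. CPM values are TMM-scaled, and levels of different genes were compared in FPKM only. Shares of summed FPKM were compared by exact permutation over libraries. Replicates of a group differed beyond sampling noise (chi-square per degree of freedom 2.56 to 8.91 over genes with at least 20 summed counts), so all were kept. On simulated data with 200 of 14246 genes changed in this comparison, 83% of changes of 1 and 74% of changes of 0.5 on the log2 scale were recovered. The changed genes were drawn from all expression levels and were far fewer than the 64.8% called in the data. These percentages therefore need not hold for the real comparison or for well-counted genes.

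The 10 members and all lists were chosen with earlier results of these data known. Named genes are the members, fixed genes of the 4 pathway lists, and the 2 further tested genes with the smallest p of each list. One of the fixed genes and one overlapping gene are not reported here. Alternatives were DESeq2 1.42.0, median-ratio factors, library totals, an adjusted p of 0.01, a gene length offset, no filter or a filter at mean count 10 with 1 CPM in 3 libraries, a replicate block, limma 3.58.1 on log2(FPKM + 0.1) or log2(FPKM + 1), leaving out each library, and shares of summed counts.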

Additional observations from a re-analysis of the deposited data

How the results depend on the processing

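All 10 members kept their direction and stayed past the threshold under all 16 alternatives of the fit. The largest adjusted p was that of Tgfbr1 without control replicate 2 (edgeR adjusted p 0.0315), and limma on log2(FPKM + 1) gave smaller sizes, -2.21 for Ltbp1, 3.24 for Ltbp2 and, outside the members, 1.69 for Postn. Same-numbered libraries did not deviate together (correlations -0.03, -0.03 and 0.03), and differently numbered ones were at -0.07 to 0.08. No shared deviation was seen, but with 3 libraries per group this does not show that they were unpaired. A replicate block left 9063 genes called, all 10 members included. DESeq2 called 8593 genes. Scaling by library totals moved the median log2 fold change of all genes to -0.04 and the share of calls that were higher from 50.3% to 46.5%, and the gene length offset moved them to -0.06 and 44.6%. Counted in reads rather than per length, the change in family share was 8.38 percentage points for Tgfb2 (6.10 in FPKM), 8.79 for Tgfb3 (10.3), -9.28 for Ltbp1 (-5.14) and 12.7 for Ltbp2 (8.96), since longer genes weigh more in reads. In summed reads Tgfb1 stayed above Tgfb3 in induced cells (7631 against 6221). The change of the most abundant ligand therefore holds per length only. Of 640 values of the 40 named genes under alternatives, 11 changed sign, all in genes that were not called. Leaving out single libraries gave -0.09 to 0.04 for Fbn2, -0.06 to 0.07 for Smad2 and -0.02 to 0.03 for Smad4, and Smad2 and Smad4 were at -0.02 and -0.03 with library totals and at -0.03 and -0.04 with the length offset. Eng and Itgb8 lost their call in 6 and 5 alternatives. Tagln passed the threshold in 4, at -0.25 and -0.54 with limma on log2(FPKM + 1) and log2(FPKM + 0.1), -0.68 with the length offset and -0.81 without induced replicate 2. The causes were not tested.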
